A study of Mus musculus with 2 samples.

Results

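The imprinted genes of the Prader-Willi and Angelman region on mouse chromosome 7 were examined in embryos with uniparental disomy of chromosome 18. The genes were Ndn, Magel2, Mkrn3, Peg12, Snrpn, Snurf and Ube3a, 7 of 18194 genes named on the array. They were read by every probe set that the platform annotation assigns to these symbols and to no other gene, which gave 24 of 45101 probe sets. Of these, 8 read Ndn, 6 read Ube3a, 7 read the Snurf-Snrpn locus and 1 each read Magel2, Mkrn3 and Peg12. Snurf and Snrpn share 1 transcript, and 6 of their 7 probe sets are annotated to both. They are therefore given as 1 locus, so that the 7 symbols made 6 measured units.

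Embryos whose whole chromosome 18 came from the mother (matUPD18) were set against embryos whose whole chromosome 18 came from the father (patUPD18). RNA of whole embryos at 8.5 days post coitum (dpc) was hybridised on 1 array per genotype, after amplification with a RiboAmp kit and biotin labelling. The disomy does not touch chromosome 7, so by the labels both kinds of embryo have a maternal and a paternal copy of the region. The labels give no strain beyond the disomy and no sex, and they do not say how many embryos went into each RNA. With 1 array per genotype no test between the genotypes was possible, since how much embryos of one genotype vary is unknown, and the number of arrays limits the precision of each value.

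Genomic imprinting leaves a gene active on the copy from one parent and silent on the copy from the other. In the Prader-Willi and Angelman region the promoter region of Snurf-Snrpn acts as an imprinting centre: it is methylated on the maternal copy, and Ndn, Magel2, Mkrn3, Peg12 and Snurf-Snrpn are read from the paternal copy. Ube3a is read from both copies in most cells and mainly from the maternal copy in neurons, where the long paternal antisense transcript Snhg14 runs through it. In humans, loss of the paternal contribution causes Prader-Willi syndrome, and loss of maternal UBE3A causes Angelman syndrome.

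The promoters of these genes differ in sequence, and a short shared element is shown here because it occurs in the promoters of Ndn and Snurf-Snrpn. RefSeq (GRCm38.p6) promoter windows, each from 250 bases before to 50 bases after a start, were found for all 7 genes, with 9 distinct windows. Both strands were searched for GCATGCG, whose letters also occur in the palindromic recognition sequence of the transcription factor NRF1. This motif was chosen after the sequences had been seen. It was present in 5 of the 9 windows, namely those of Ndn, Snurf-Snrpn and 3 upstream starts of Snrpn, and in 3.58% of all 32851 promoter windows. The upstream Snrpn starts resemble each other in sequence and are not independent. The windows of Ube3a, Magel2, Mkrn3 and Peg12 did not hold these letters. In the windows of 30 bases below, capitals mark the motif, which in each case overlaps its own reverse complement to give CGCATGCG.
Ndn, chr7:62348243-62348272, plus strand: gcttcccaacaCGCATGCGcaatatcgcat
Snurf-Snrpn, chr7:60005150-60005179, minus strand: cagccattgcctgggaCGCATGCGtaggga
Snrpn upstream start, chr7:60048031-60048060, minus strand: gcaaacatgcaCGCATGCGtcgttgaaggt
Snrpn upstream start, chr7:60140285-60140314, minus strand: gcaaacatccaCGCATGCGtgatgggaggg
Snrpn upstream start, chr7:60450222-60450251, minus strand: gcaaacatccaCGCATGCGtgattggaagg

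The motif began 23 bases before the Ndn start and at base 37 of the Snurf-Snrpn transcript. CG dinucleotides, the letters at which imprints are methylated, numbered 29 in the Ube3a window, 15 in Mkrn3, 12 in Peg12, 11 in Ndn, 10 in Magel2 and 7 in Snurf-Snrpn. The windows of the 3 upstream Snrpn starts held fewer, namely 4, 3 and 2. The median over all windows was 7. The 250 bases before the starts of Magel2, the member whose arrays differed most, and Ndn, the member with the most probe sets, are printed with each CG in capitals. The arrays measured RNA and not methylation, so nothing about methylation at these positions was measured.
Magel2, chr7:62376729-62376978, plus strand: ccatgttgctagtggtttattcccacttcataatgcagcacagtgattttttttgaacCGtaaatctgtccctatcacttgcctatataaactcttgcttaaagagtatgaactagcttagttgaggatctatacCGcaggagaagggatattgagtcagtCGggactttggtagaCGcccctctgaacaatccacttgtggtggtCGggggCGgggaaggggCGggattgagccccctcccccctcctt
Ndn, chr7:62348027-62348276, plus strand: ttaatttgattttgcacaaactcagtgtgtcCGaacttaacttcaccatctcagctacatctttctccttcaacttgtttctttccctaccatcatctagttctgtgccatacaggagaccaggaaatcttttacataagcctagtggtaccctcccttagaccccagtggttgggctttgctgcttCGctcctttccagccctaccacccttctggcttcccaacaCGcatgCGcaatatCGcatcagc

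Values are MAS5 signal intensities in arbitrary units, scaled to a common level on each array. A probe set was called measurable where at least 1 of its signals reached the 60th percentile of its array (190.1 in matUPD18 and 184.9 in patUPD18). Signals under the 40th percentile (84.2 and 82.5) were raised to it before log2 ratios of matUPD18 over patUPD18 were taken, and each gene was represented by its brightest probe set. Signals of different probe sets depend on their probes and cannot be read as relative amounts of RNA. All 6 units had a measurable probe set, and 13 of the 24 probe sets were measurable.

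The label check came first. Impact, the paternally read imprinted gene of chromosome 18, had a signal of 328 in matUPD18 and 2466 in patUPD18 by its brightest probe set, a log2 ratio of -2.91 in the direction of the labels. A further measurable probe set did not show this, with a signal of 268 in matUPD18 and 205 in patUPD18. The labelled tissue was checked with markers of the somite-stage embryo: Meox1, Twist1, Myl7, Pax3, Hoxb1 and Cdx2 were measurable, Nkx2-5 was not, and T had no probe set of its own. Of these, Cdx2, a posterior patterning gene, differed between the arrays, at 218 in matUPD18 and 681 in patUPD18. All 8 yolk sac and visceral endoderm markers were at least 2-fold higher in matUPD18, with summed signals of 33162 in matUPD18 and 4801 in patUPD18; 5 of them passed the measurable limit in matUPD18 alone. All 7 primitive red cell markers were lower in matUPD18, with summed signals of 45440 in matUPD18 and 68918 in patUPD18; 6 of them passed the limit on both arrays. Of 5 placenta and decidua markers on the array, 2 were measurable, Dcn and Plac1, and the summed signals were 901 in matUPD18 and 523 in patUPD18. The trophoblast marker Tpbpa read 29.2 in matUPD18 and 15.3 in patUPD18, under the floor on both arrays. Summed signals are led by the brightest probe sets and are no measure of the amount of a tissue. In whole embryos, more cells of a type and more RNA per cell cannot be told apart, and the part of these tissue differences in the ratios below was not tested.

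Most of the imprinted genes of the region had similar signals in matUPD18 and patUPD18 embryos. Of the 6 units, 5 lay within 2-fold and 1, Magel2, was at least 2-fold higher in matUPD18, while no unit passed 2-fold toward patUPD18. Among all 10485 measurable genes, 4.48% were at least 2-fold apart in either direction, 2.7% with the higher signal in matUPD18 and 1.78% with the higher signal in patUPD18, so 1 of 6 is a count too small to set apart from that share. The median log2 ratio of the 6 units was 0.19, against -0.04 over all measurable genes, whose interquartile range ran from -0.31 to 0.26. By probe set, 6 of the 13 measurable ones had the higher signal in matUPD18 and 7 had it in patUPD18, and 1 was at least 2-fold apart, against 5.22% of the 16699 measurable probe sets of all genes. The plot of signals by probe set shows how close most pairs lay.

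**Figure D1:**
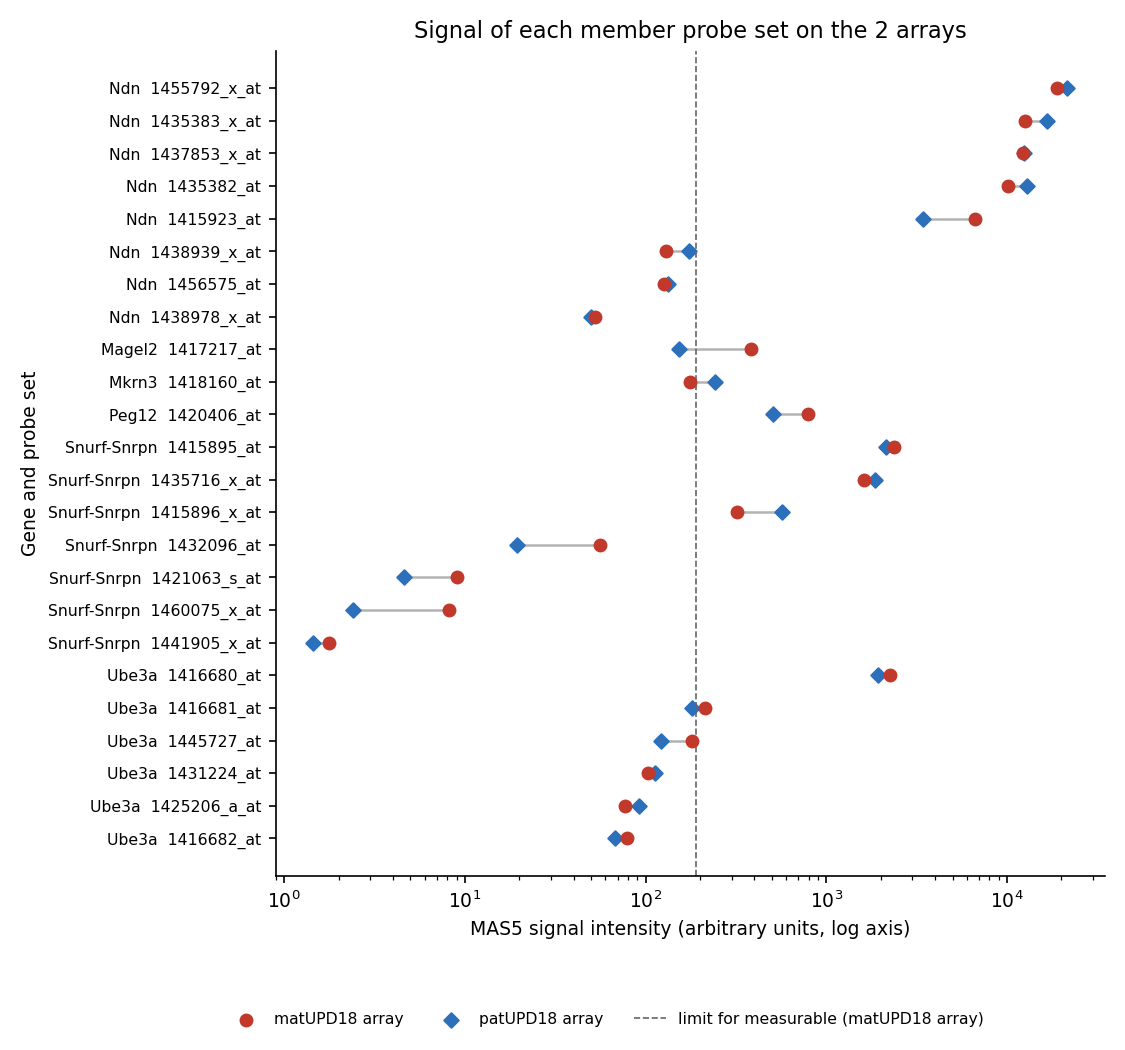
MAS5 signal intensity (arbitrary units, log axis) of the 24 probe sets of the region's imprinted genes, 1 row each, on the matUPD18 array (red circles) and the patUPD18 array (blue diamonds). The dashed line is the limit for a measurable signal on the matUPD18 array; most pairs nearly coincide, and Magel2 and the Ndn probe set 1415923_at are the measurable rows with the widest gaps toward matUPD18.

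Magel2 encodes a MAGE-family protein that works with the ubiquitin ligase TRIM27 in recycling membrane proteins from endosomes. Its single probe set, 1417217_at, read 383 in matUPD18 and 153 in patUPD18. The matUPD18 signal lay above the measurable limit and the patUPD18 signal below it, though over the floor. The log2 ratio was 1.32, a 2.50-fold higher signal in matUPD18. No second Magel2 probe set was there to set beside it. With the measurable genes cut into 10 groups by mean signal, from 1 (dimmest) to 10 (brightest), Magel2 was in group 2. There, 4.29% of 1048 genes were at least 2-fold apart and 26 genes (2.48%), Magel2 included, had ratios at least as far from 0. In that group 170 genes, Magel2 included, passed the limit on 1 array only, which itself moves ratios away from 0. The share of 2.48% is therefore a description and no neutral scale for Magel2.

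Ndn encodes necdin, a MAGE-family growth suppressor best known in postmitotic neurons. Its 8 probe sets did not give a single answer. The brightest, 1455792_x_at, read 19011 in matUPD18 and 21511 in patUPD18, a log2 ratio of -0.18. A name ending in _x_at marks, by the array design, a probe set that may also detect other transcripts. Ndn belonged to brightness group 10, whose own median log2 ratio was -0.19, so by this probe set it lay where bright genes lay in general. After quantile or loess scaling its ratio was 0.12 or 0.05, so the direction is not settled.

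Another 3 bright Ndn probe sets were also lower in matUPD18 as deposited. Probe set 1435383_x_at read 12572 in matUPD18 and 16693 in patUPD18. Probe set 1435382_at read 10175 in matUPD18 and 12978 in patUPD18. Probe set 1437853_x_at read 12279.8 in matUPD18 and 12447 in patUPD18, nearly equal, and its ratio turned to 0.18 and 0.16 under quantile and loess scaling. The log2 ratios of these 4 bright probe sets, 3 of them of the _x_at kind, thus ran from -0.41 to -0.02.

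The fifth measurable Ndn probe set, 1415923_at, stood apart from them. It read 6667 in matUPD18 and 3419.8 in patUPD18, a 1.95-fold higher signal in matUPD18 with a log2 ratio of 0.96. It is the only Ndn probe set whose annotation lists a RefSeq mRNA, and its ratio passed 1 under quantile and loess scaling (1.02 and 1.04). The gap to the nearest other measurable Ndn probe set was 0.98 on the log2 scale. Over all genes the pooled standard deviation (SD) of log2 ratios between measurable probe sets of a gene was 0.44, and for Ndn it was 0.56. Ranges as wide as that of Ndn, 1.37, occurred in 32 of the 125 genes with 5 measurable probe sets, Ndn included. The other 3 Ndn probe sets stayed below the measurable limit on both arrays, with signals of 52.8 to 129 in matUPD18 and 49.7 to 174 in patUPD18.

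Mkrn3 encodes a makorin, a RING-finger ubiquitin ligase that restrains the onset of puberty. Its probe set, 1418160_at, read 177 in matUPD18 and 243 in patUPD18, a log2 ratio of -0.46. The matUPD18 signal lay just under the measurable limit. Mkrn3 was in brightness group 1, where 564 of 1049 genes (53.8%) had ratios at least as far from 0. In that group 897 genes, Mkrn3 included, passed the limit on 1 array only, which itself moves ratios away from 0, so this share is a description of dim genes and no neutral scale.

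Peg12, also called Frat3, encodes a protein of the FRAT family, which binds the kinase GSK3. Probe set 1420406_at read 795 in matUPD18 and 508 in patUPD18, a 1.56-fold higher signal in matUPD18. Among the 1049 genes in its brightness group, 146 (13.9%) had ratios at least as far from 0 as its 0.65. Magel2, Peg12 and Mkrn3, which lie next to each other, did not share a direction. However, Magel2 passed the limit in matUPD18 alone and Mkrn3 in patUPD18 alone, which largely fixes their directions. Nothing is drawn from the difference between them.

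**Figure D2:**
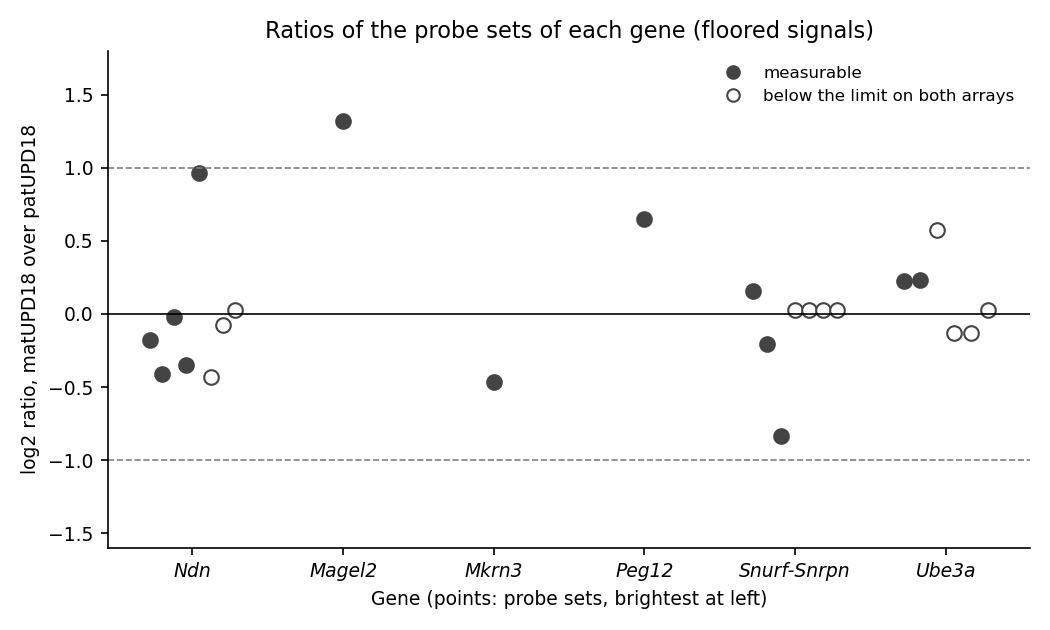
Log2 ratio of matUPD18 over patUPD18 for each probe set, grouped by gene with the brightest at the left (filled, measurable; open, below the limit on both arrays; dashed lines, 2-fold). Magel2 lies above the upper line at 1.32, Ndn has 1 probe set at 0.96 over 4 measurable ones below 0, and the 2 measurable Ube3a probe sets coincide at 0.23.

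Snurf-Snrpn gives a bicistronic RNA for a small upstream protein, SNURF, and for SmN, a brain-enriched relative of the splicing protein SmB. Its brightest probe set, 1415895_at, read 2379 in matUPD18 and 2137 in patUPD18, a log2 ratio of 0.15. Probe set 1435716_x_at read 1619 in matUPD18 and 1870.1 in patUPD18, whereas 1415896_x_at read 320.0 in matUPD18 and 570.4 in patUPD18, with log2 ratios of -0.21 and -0.83. These directions were the same under the other scalings. The locus thus pointed toward matUPD18 by its brightest probe set and toward patUPD18 by the median of its measurable ones, -0.21. The pair that pointed toward patUPD18 is also of the _x_at kind. A RefSeq mRNA is listed for 1415895_at and for 1415896_x_at, which pointed opposite ways. The range of 0.99 was matched or exceeded in 217 of 933 genes with 3 measurable probe sets, Snurf-Snrpn included.

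The remaining 4 Snurf-Snrpn probe sets were below the limit and the floor on both arrays. The 1 annotated to Snrpn alone, 1432096_at, read 55.8 in matUPD18 and 19.5 in patUPD18. The other 3 read 1.76 to 9.01 in matUPD18 and 1.45 to 4.58 in patUPD18. No direction is drawn from signals this low.

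Ube3a, the member with maternal expression in neurons, encodes the ubiquitin ligase E6AP. Its brightest probe set, 1416680_at, read 2258 in matUPD18 and 1929 in patUPD18. The other measurable one, 1416681_at, read 213 in matUPD18 and 182 in patUPD18, where it lay just under the limit. Both gave a log2 ratio of 0.23, a 1.17-fold higher signal in matUPD18 that stayed between 0.19 and 0.23 under the scalings tried. As deposited, 2559 of the 2567 genes with 2 measurable probe sets had at least the range of Ube3a, and the median range of such genes was 0.36. So close a match held for the deposited scaling only. The brighter and dimmer probe sets had ratios of 0.20 and 0.19 under quantile scaling, and of 0.23 and 0.20 under loess scaling.

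Below the measurable limit, Ube3a had 4 more probe sets. Probe set 1445727_at read 181 in matUPD18 and 122 in patUPD18, and 1416682_at read 79.3 in matUPD18 and 68.0 in patUPD18. Probe set 1431224_at read 103 in matUPD18 and 113 in patUPD18, and 1425206_a_at read 76.6 in matUPD18 and 91.9 in patUPD18. These dim probe sets pointed both ways.

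Snhg14, the long noncoding RNA that hosts the region's small nucleolar RNAs and overlaps Ube3a in antisense, lies among the members. Its probe set 1455087_at read 751 in matUPD18 and 223 in patUPD18, a 3.36-fold higher signal in matUPD18. A second measurable probe set, 1436964_at, read 174 in matUPD18 and 261 in patUPD18, with the higher signal in patUPD18. The log2 ratios of 1.75 and -0.58 kept their signs under the other scalings, so these probe sets gave opposite answers for this locus. By the remaining Snhg14 probe set the signals were 4.16 in matUPD18 and 0.753 in patUPD18, and Ipw, another noncoding RNA there, read 3.97 in matUPD18 and 8.46 in patUPD18, all far under the floor.

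In gene order no flanking gene was at least 2-fold apart. The nearest measurable genes before it were Herc2, a large ubiquitin ligase gene (log2 ratio -0.11), Oca2, a melanosome transporter gene (0.00 to 2 decimals), and Atp10a, a phospholipid flippase gene (0.51). The nearest after it were Chrna7, a nicotinic acetylcholine receptor gene (0.37), Otud7a, a deubiquitinase gene (0.34), and Klf13, a zinc finger transcription factor gene (0.18). Over the 24 nearest measurable genes, 12 on each side, log2 ratios ran from -0.57 to 0.70. The median was 0.30 over the 12 genes before the region and 0.02 over the 12 after it. On the whole of chromosome 7, 3.94% of 761 measurable genes were at least 2-fold apart. Magel2 and Snhg14 were thus the genes of this stretch past 2-fold, each by 1 probe set.

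**Figure D3:**
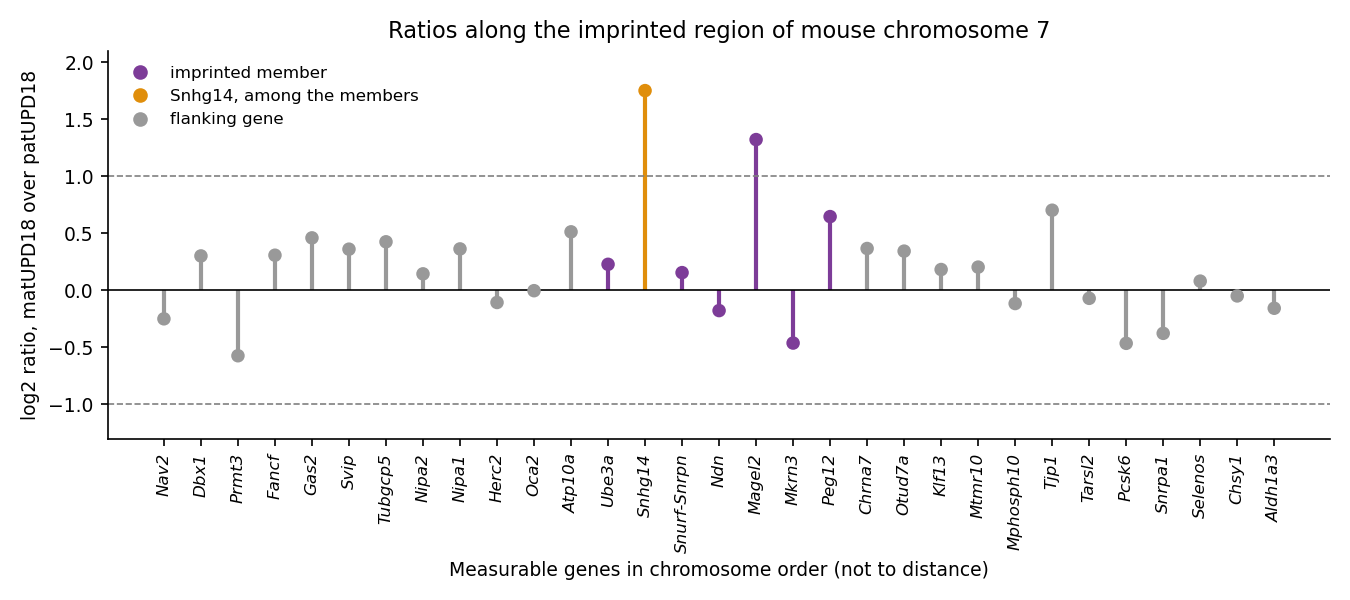
Log2 ratio of matUPD18 over patUPD18 of each measurable gene along the region and its flanks in chromosome order, not to distance (purple, imprinted members; orange, Snhg14; grey, flanking genes; dashed lines, 2-fold). Snhg14 (1.75) and Magel2 (1.32) rise above the upper line, and all 24 flanking genes lie between -0.57 and 0.70.

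Against brightness, the members were spread over the whole range of measurable genes. Ndn was in group 10, Ube3a and Snurf-Snrpn in group 8, Peg12 in group 5, Magel2 in group 2 and Mkrn3 in group 1. The share of genes at least 2-fold apart was 16.3% in group 1, where most genes passed the limit on 1 array only, and 0.667% in group 10. The member past 2-fold was thus one of the dim ones, and of the 6 units Ndn was read where ratios varied least.

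**Figure D4:**
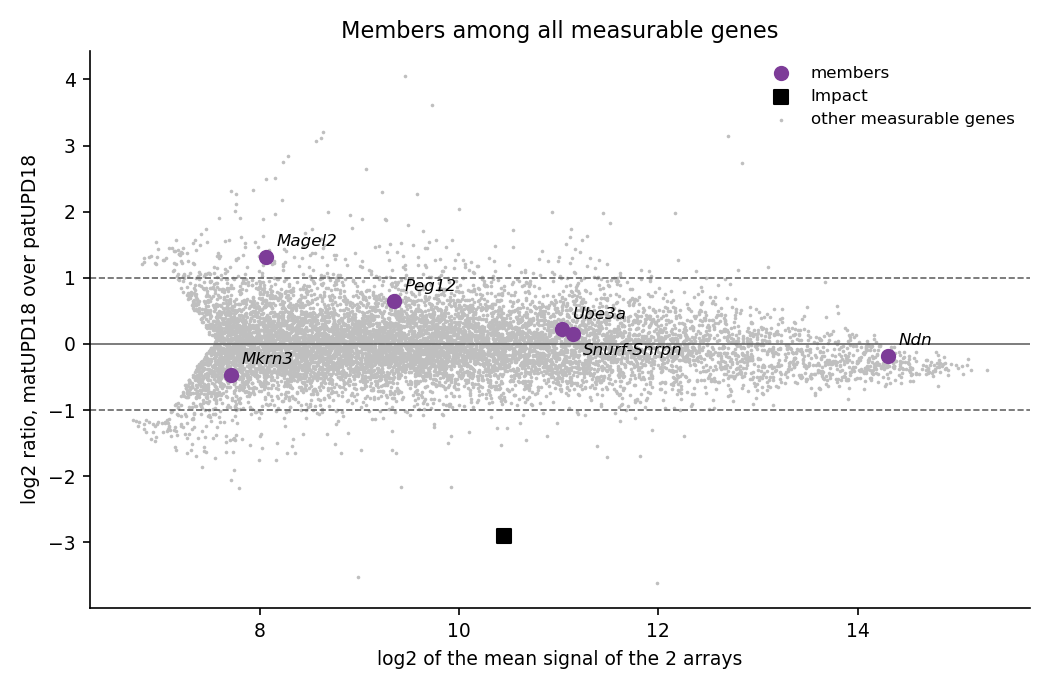
Log2 ratio of matUPD18 over patUPD18 against log2 mean signal for all 10485 measurable genes (grey), with the members in purple and Impact as a black square (dashed lines, 2-fold). Grey points spread most at low signal, Magel2 lies at 1.32 among dim genes, and Impact lies at -2.91.

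Relatives and partners of the members were read from lists of known family members and partners. Of 11 measurable genes of the MAGE family and of necdin or MAGEL2 partners, none was at least 2-fold apart, 2 were higher in matUPD18 and 9 lower, with a median log2 ratio of -0.35. Beside this count, 70.9% of all genes in brightness group 10 and 56.5% in group 1 were lower in matUPD18. These are the groups that leaned most that way. In groups 2 to 9 the median log2 ratios ran from -0.04 to 0.01, and over all measurable genes the median was -0.04. Maged1 and Maged2, MAGE genes on the X chromosome, had log2 ratios of -0.50 and -0.56, and Mageh1, another, had 0.82. All of them had lower signals than Ube3a, a gene of group 8, so group 10 is no scale for them. The labels do not give the sex of the embryos, and its part in the ratios of X chromosome genes was not tested. Trim27, whose product partners MAGEL2, read 11835 in matUPD18 and 15257 in patUPD18. The deubiquitinase gene Usp7 read 9945 in matUPD18 and 10937 in patUPD18. Of the other measurable Usp7 probe sets, 5 of 6 had the opposite direction, as did 1 of 3 of Trim27. Tro (-0.40) and E2f1 (-0.35) also had a second measurable probe set with the opposite direction (0.39 and 0.20). After quantile or loess scaling 3 genes of this list were higher in matUPD18 and 8 lower, again with none at least 2-fold apart.

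Genes of the Sm ring, to which SmN belongs, and of its assembly were also read. Of 8 measurable genes 7 were lower in matUPD18, none by 2-fold, with a median of -0.45, and -0.33 or -0.34 after quantile or loess scaling. Snrpb, which encodes SmB, read 12845 in matUPD18 and 16200.3 in patUPD18, but by a second measurable probe set its log2 ratio was 0.57. Snrpg (-0.55) likewise had a second measurable probe set at 0.32. Snrpf read 1124 in matUPD18 and 1995 in patUPD18, the ratio furthest from 0 on the list (-0.83). Gemin5, of the SMN complex, was the 1 gene higher in matUPD18 (0.26). Brightness group 10 as a whole, to which the brightest of these genes belong, had 744 of 1049 genes (70.9%) lower in matUPD18 and a negative median (-0.19, or -0.01 and -0.03 after quantile and loess scaling). Snrpf, Gemin5 and, also on the list, Gemin2 and Prmt5 had lower mean signals than Ube3a, a gene of group 8. Group 10 is thus no scale for them. The median log2 ratio was 0.00 in group 8 and -0.04 over all measurable genes.

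Both other makorins were lower in matUPD18, with log2 ratios of -0.74 for Mkrn1 and -0.21 for Mkrn2. All 5 other measurable Mkrn1 probe sets had that direction. Frat1 and Frat2, the relatives of Peg12, were not measurable, with Frat2 at 162 in matUPD18 and 141 in patUPD18. The kinase genes Gsk3a and Gsk3b had log2 ratios of -0.19 and -0.07, but the 5 other measurable Gsk3b probe sets ran from -0.32 to 0.53, with 3 of them above 0. Of 2 further genes of the beta-catenin pathway, Apc had log2 ratios of 0.93 by the brighter and 0.20 by the dimmer of its measurable probe sets, and Axin1 was 1.48-fold lower in matUPD18. Of 5 measurable relatives and partners of UBE3A none was at least 2-fold apart. Ube3b, a related ligase gene, was 1.56-fold higher in matUPD18, while Herc2 and the proteasome subunit gene Psmd4 (-0.03) were close to equal, although 1 of 2 further Psmd4 probe sets had a log2 ratio of -0.89.

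**Figure D5:**
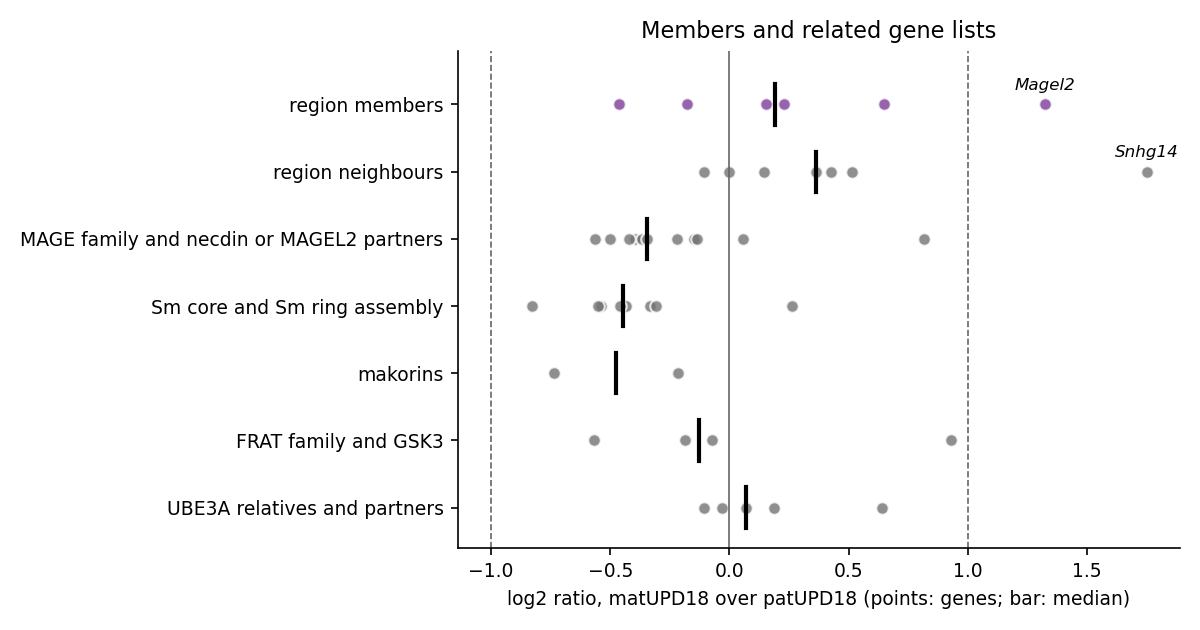
Log2 ratio of matUPD18 over patUPD18 of the measurable genes of the region (purple) and of lists of neighbours, relatives and partners (grey), with each list's median as a bar and 2-fold as dashed lines. Magel2 and, among neighbours, Snhg14 are the only points outside the dashed lines, and the Sm list has its median at -0.45.

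Several members are known for high expression in neurons, so markers of early neurons and of the neural plate are given beside them. Of 10 early neuron markers on the array, 8 were measurable, but 5 of them passed the limit on 1 array only, which largely fixes their direction: Neurog1, Neurod1, Dcx and Nhlh1 passed in patUPD18 alone and Stmn2 in matUPD18 alone. The 3 that passed on both arrays were Elavl4, Neurog2 and Isl1, with log2 ratios of -0.49, -0.20 and -0.05, and a second Isl1 probe set had 0.52. The summed signals of all 10 markers were 2362 in matUPD18 and 2722 in patUPD18. Of 8 neural plate and neural tube markers 5 were higher in matUPD18, none by 2-fold, and 3 lower, of which Fabp7 and Hes5 by at least 2-fold. The summed signals were 15000.3 in matUPD18 and 16384 in patUPD18. Hes5 alone read 2199 in matUPD18 and 4777 in patUPD18, a wider gap than that between the sums. The part of neural tissue in the member ratios was not tested.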

How the data were processed

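The members and gene lists were chosen with earlier results of these data known. The deposited values are MAS5 signal intensity per probe set, made by the authors with MAS5 and GCOS, per the submitters' processing notes (no version is named there). The 2% trimmed mean was 500.003 in matUPD18 and 500.004 in patUPD18, so each array had been scaled to 1 level and a change of most transcripts together would be hidden. RiboAmp amplification starts at the 3' end, and probe sets far from it can read low. No detection calls were used.

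Symbols came from the platform annotation, updated through Entrez identifiers to RefSeq (34754 of 34958 single-gene probe sets matched). RefSeq also gave gene order and promoter sequence. Named genes were the members, Impact, genes among the members, the 3 nearest measurable genes on each side, and from each list those past 2-fold plus up to 4 that bear on a member; Mkrn1, Apc and others beyond these were named after their values were seen. Alternatives were median centring, quantile and loess scaling (span 0.3), floors at the 20th and 60th percentiles or none, other probe set rules, and other thresholds. Scripts were tested on simulated data. Python 3.11.15, pandas 2.3.3, numpy 2.4.6 and statsmodels 0.14.6 were used.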

Additional observations from a re-analysis of the deposited data

How the results depend on the processing

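With 1 array per genotype no replicate could be left out. No paired analysis was possible because each genotype has 1 array. The count of units at least 2-fold apart was 1 (Magel2) under the other scalings, floors, probe set rules and measurable limit tried. It was 2 (Magel2 and Peg12) at 1.5-fold and 0 at 3-fold. Of all measurable genes, 18.7% passed 1.5-fold and 0.725% passed 3-fold, and the counts of units are too small to set apart from these shares. Over all measurable genes the counts higher in matUPD18 and higher in patUPD18 were 283 and 187 at 2-fold, 1045 and 916 at 1.5-fold, 48 and 28 at 3-fold, and 189 and 78 with the floor at the 60th percentile. The Magel2 log2 ratio ran from 1.05 to 1.32 over 8 alternatives and was lowest with that floor. The ratio of Peg12 ran from 0.60 to 0.65, that of Ube3a from 0.20 to 0.23 and that of Mkrn3 from -0.50 to -0.36. The direction depended on the setting for Ndn (-0.35 to 0.12) and for Snurf-Snrpn (-0.21 to 0.16). The median over the units ran from 0.03 to 0.20. The deposited arrays already had a median log2 ratio of 0.00 over all probe sets, so median centring changed nothing. Magel2, Mkrn3 and Peg12 each rest on 1 probe set, and 11 of the 24 probe sets had no signal over the measurable limit.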

Other observations

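Imprinted genes outside the region were read in the same way. Among 10 measurable genes listed as paternally read, 3 were higher in matUPD18 and 7 lower, or 4 and 6 after quantile or loess scaling. Only Rasgrf1 was at least 2-fold apart, at 98.3 in matUPD18 and 209 in patUPD18. The median log2 ratio of this list was -0.21, against -0.04 over all measurable genes. Of all measurable genes 4.48% were at least 2-fold apart, a share from which so small a count cannot be set apart. Peg3, a zinc finger gene, read 18821 in matUPD18 and 17819.5 in patUPD18, and Plagl1, a growth-regulating zinc finger gene, read 6293 in matUPD18 and 10508 in patUPD18. Of 8 measurable genes listed as maternally read, 4 were higher in matUPD18 and 4 lower, with a median log2 ratio of -0.07. Only Dcn was at least 2-fold apart, at 222 in matUPD18 and 85.8 in patUPD18. A gene can be imprinted in some tissues only, and the arrays do not show which parental copy was read in these embryos. Rasgrf1 and Dcn each passed the measurable limit on the higher array only. Dcn is also on the placenta and decidua marker list.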
